A study of Homo sapiens with 6 samples.

Results

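Extracellular proteases and their inhibitors were followed at their promoters by 105 genes of 6 families, out of 16500 distinct gene names in the deposited files. The genes were taken by symbol: 18 ADAM, 24 ADAMTS, 20 MMP and 13 cathepsin (CTS) genes for the proteases, and 4 TIMP and 26 SERPIN genes for the inhibitors. Antisense names were left out. The measurement was H3K4me3, a histone mark of active promoters (trimethylated lysine 4 of histone H3), read by chromatin immunoprecipitation and sequencing (ChIP-seq). The cells were BE(2)-C, an established human neuroblastoma line that carries amplified MYCN, the gene for the transcription factor N-Myc. They were transfected for 24 h with a control siRNA or with WDR5 siRNA-1, which targets WDR5, a core subunit of H3K4 methyltransferase complexes. Each siRNA had 1 H3K4me3 library, so there is no replicate, no test and no p-value anywhere below, and 2 IgG and 2 input libraries were not used here.

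The files give names and positions and no levels. A gene has a peak here when the authors list it with an H3K4me3 peak within 1 kb of its transcription start site (TSS). Genes listed with control siRNA but not with WDR5 siRNA are called control-only. A gene absent from a list lacked a call, which leaves its H3K4me3 level unknown, and a gene in both lists can still differ in level. The depth behind the calls is unknown, and it was not tested whether it differed between the libraries. The other values come from the authors' promoter tables, 1 for promoters bound by N-Myc and 1 for promoters not bound, which give 1 TSS (hg19) per gene in an order whose meaning is not stated.

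ADAM proteins are membrane proteases that cut the outer parts of other membrane proteins, and some have lost protease activity and act as receptors. ADAMTS proteases are secreted and cut proteoglycans, procollagens and fibrillin-associated proteins, while the ADAMTSL proteins resemble them without a protease domain. MMPs are zinc proteases that degrade matrix, either secreted or held at the membrane, and TIMPs inhibit them. Cathepsins work mainly in lysosomes and can act outside cells after secretion. Most serpins trap serine proteases, and some carry hormones or fold collagen instead.

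A control peak was listed for 57 of the 105 genes, and 39 of these were also listed with WDR5 siRNA. The remaining 18, or 31.6% of the control peaks, were control-only. Over all names the control-only share was 13.5% (1845 of 13618). No member was listed only with WDR5 siRNA, a class that took 0.817% of all WDR5 siRNA names. The other 48 genes were in neither list. Of the 105 genes, 15 entered only because a peak list named them, so the share with a peak was read over the 90 genes of the promoter tables. There a control peak was listed for 42 genes (46.7%), against 70.5% of all genes in those tables, and a WDR5 siRNA peak for 28 (31.1%), against 62.8%.

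**Figure D1:**
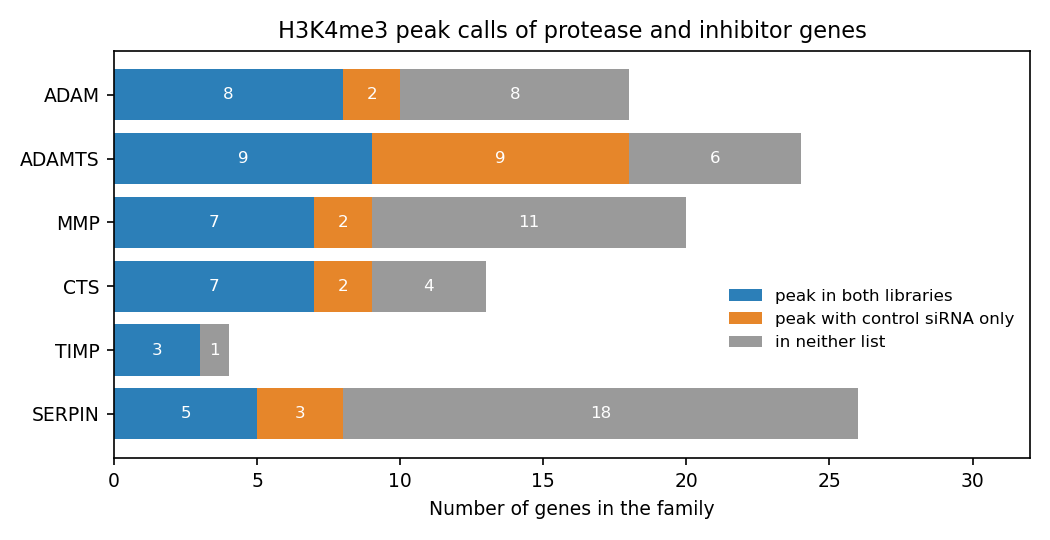
Number of genes (horizontal axis) of each family by peak call, stacked as listed in both libraries, with control siRNA only, or in neither list. ADAMTS genes held 9 of the 18 control-only calls, and 18 of 26 SERPIN genes were in neither list.

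The ADAMTS family held the most control-only genes. Of the ADAMTS control peaks 9 of 18 were missing, of SERPIN 3 of 8 (37.5%), of MMP 2 of 9 (22.2%), of CTS 2 of 9 (22.2%), of ADAM 2 of 10 and of TIMP 0 of 3. These counts describe 1 library per siRNA and are small outside ADAMTS, so no order among the families can be tested. Proteases as a whole had 15 of 46 control-only (32.6%) and inhibitors 3 of 11 (27.3%).

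**Figure D2:**
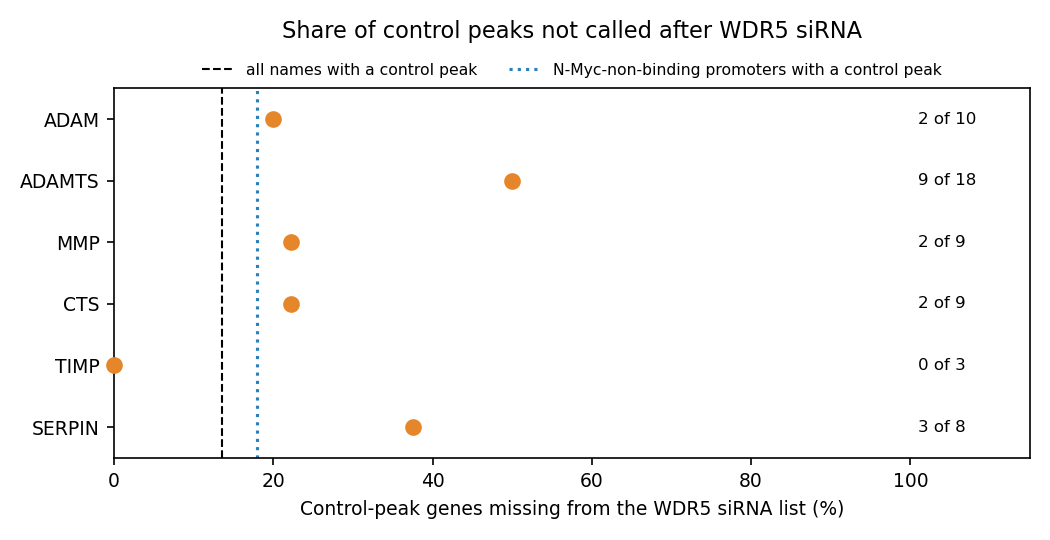
Control-peak genes missing from the WDR5 siRNA list, in percent, for each family (points), with the counts at the right. The dashed line marks all names (13.5%) and the dotted line marks N-Myc-non-binding promoters (17.9%); ADAMTS, at 9 of 18, is the highest point and TIMP, at 0 of 3, the lowest.

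Nearly all members fell in the N-Myc-non-binding class. Only ADAM17 and ADAM19 were N-Myc-binding promoters, 2 of 90 (2.22%), while 33.9% of all genes in the promoter tables were. Among genes with a control peak the numbers were 2 of 42 (4.76%), against 45.7% of all. The 88 ADAMTS, MMP, CTS, TIMP, SERPIN and remaining ADAM promoters were non-binding. Within the non-binding class 40 members had a control peak, which is 45.5% of 88 where all non-binding promoters stood at 58.0%. Of these 40, 13 were control-only (32.5%), against 17.9% of all non-binding promoters with a control peak and 4.18% of binding ones. The 15 members outside both tables had 4 control-only calls (26.7%), against 15.5% of all control names outside the tables.

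ADAM17, the sheddase that releases TNF and ligands of the EGF receptor, was listed in both libraries. Its TSS (chromosome 2, position 9695917) stood at row 817 in the table of binding promoters, 25.1% of the way down. ADAM19, a sheddase of neuregulins, was control-only, with its TSS at chromosome 5, position 157002831. It held row 3055, at 93.9%, where the median of all control-only promoters of that table was 90.3%. The RefSeq promoter windows of this pair (GRCh38.p14, 250 bases before to 50 after the gene start, minus strand) are shown because they are the only N-Myc-binding members. Capitals mark CpG dinucleotides. ADAM17 lies at chr2:9555781-9556080 and ADAM19 at chr5:157575726-157576025.
ADAM17: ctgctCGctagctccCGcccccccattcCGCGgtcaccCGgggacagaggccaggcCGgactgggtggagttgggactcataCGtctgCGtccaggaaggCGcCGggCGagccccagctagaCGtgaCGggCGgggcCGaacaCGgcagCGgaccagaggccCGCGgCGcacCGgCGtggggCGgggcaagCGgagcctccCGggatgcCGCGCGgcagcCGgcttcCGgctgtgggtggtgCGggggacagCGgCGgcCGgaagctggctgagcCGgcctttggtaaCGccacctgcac
ADAM19: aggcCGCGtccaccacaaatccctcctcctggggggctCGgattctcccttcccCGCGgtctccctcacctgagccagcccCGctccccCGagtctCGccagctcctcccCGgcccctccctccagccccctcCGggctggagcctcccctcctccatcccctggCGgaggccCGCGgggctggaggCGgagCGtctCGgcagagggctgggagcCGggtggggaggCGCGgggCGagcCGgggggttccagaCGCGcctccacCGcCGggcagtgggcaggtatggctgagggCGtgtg
The windows hold 36 CpG dinucleotides for ADAM17 and 26 for ADAM19. Neither window holds CACGTG, the canonical E-box that MYC proteins bind, which reads the same on both strands.

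Among the other membrane sheddases, ADAM10, which cuts Notch and the amyloid precursor protein, ADAM9 and ADAM15 were listed in both libraries and non-binding. They stood early in the non-binding table, ADAM9 at row 67, ADAM15 at row 328 and ADAM10 at row 369 of 6331. ADAM33, another membrane metalloprotease (chromosome 20, position 3662738), was control-only at row 4039. ADAM8, ADAM12 and ADAM28 were in neither list. Of the 9 sheddases 4 were thus in both, 2 were control-only and 3 were in neither. A control peak was listed for 66.7% of them, against 70.5% of all genes in the promoter tables.

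ADAM11, ADAM22 and ADAM23, neural members without protease activity that bind LGI proteins at synapses, were 3 of 3 in both lists. Over all names with a control peak, 86.5% were in both. ADAM11 stood at 31.4% of the non-binding table and ADAM22 at 25.9%. ADAM23 was in no promoter table, so it was not free to lack a peak. Of the 6 ADAM genes known from testis or epididymis, ADAM2, ADAM7, ADAM18, ADAM21 and ADAM29 were in neither list. The exception was ADAM32, listed in both (row 2387). All 6 of these genes were in the promoter tables, where 70.5% of all genes had a control peak. Only ADAM9 and SERPINI1 among the members had another listed TSS within 2 kb. These were TM2D2 at 464 bp from ADAM9 and PDCD10 at 781 bp from SERPINI1, and both partners were listed in both libraries.

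CACGTG was found in the windows of 7 of the 70 members with a RefSeq promoter (10.0%), against 9.45% of the 12597 names in the files with one and 7.26% of all 35116 RefSeq windows. The 7 were ADAM10, ADAMTS6, ADAMTS17, CTSA, CTSD, CTSF and SERPINE2. All 7 were listed in both libraries, which makes 7 of 25 members listed in both (28.0%, against 10.6% of all names listed in both). None of the 12 control-only members with a window held it, and 8.12% of all control-only names did. None of the 7 was in the N-Myc-binding table, where 15.0% of promoters held the hexamer, against 6.23% of non-binding ones. CTSF was in no promoter table, so it has no binding class and was not free to lack a peak. The rest of the 7 were non-binding. Further members among the 25, such as ADAM23 and MMP11, were also outside the tables and not free to lack a peak. A match describes letters only, and no site was measured. The ADAM10 window (GRCh38.p14, chr15:58749658-58749957, minus strand) is shown as a non-binding promoter with the hexamer, here in capitals.
ADAM10: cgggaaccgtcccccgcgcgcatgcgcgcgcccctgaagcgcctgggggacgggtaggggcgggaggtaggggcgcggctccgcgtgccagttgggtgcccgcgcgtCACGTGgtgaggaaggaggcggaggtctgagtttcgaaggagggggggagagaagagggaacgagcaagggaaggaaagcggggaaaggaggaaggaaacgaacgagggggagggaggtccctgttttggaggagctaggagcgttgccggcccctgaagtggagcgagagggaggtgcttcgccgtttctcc

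ADAMTS genes contributed 9 of the 18 control-only calls. The 9 control-only names were ADAMTS4, ADAMTS9, ADAMTS10, ADAMTS14, ADAMTS15, ADAMTS20, ADAMTSL2, ADAMTSL3 and ADAMTSL5. The 9 names in both lists were ADAMTS1, ADAMTS3, ADAMTS5, ADAMTS6, ADAMTS7, ADAMTS16, ADAMTS17, ADAMTS19 and ADAMTSL4. ADAMTS2, ADAMTS8, ADAMTS12, ADAMTS13, ADAMTS18 and ADAMTSL1 were in neither list. ADAMTS3, ADAMTS7, ADAMTS9, ADAMTSL3 and ADAMTSL4 were in no promoter table, so they were not free to lack a peak. All 19 ADAMTS promoters in the tables were non-binding. The share with a control peak was 68.4% (13 of 19), against 70.5% of all genes in those tables. With WDR5 siRNA it was 31.6% (6 of 19), against 62.8%.

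The proteoglycanases, which cut aggrecan and versican, held 4 of these control-only names among 6 with a control peak. Over all names with a control peak the control-only share was 13.5%, and over non-binding promoters 17.9%. ADAMTS4, a cartilage aggrecanase (chromosome 1, position 161168845), stood at row 3375, ADAMTS15 (chromosome 11, position 130318869) at row 3217 and ADAMTS20 (chromosome 12, position 43945724) at row 3559, while ADAMTS9, a versican protease, was in no promoter table. ADAMTS1 and ADAMTS5, which lie 122 kb apart on chromosome 21 and cut the same class of substrates, were listed in both libraries. ADAMTS1 held row 57 of the non-binding table, the earliest row of any member, and ADAMTS5 row 1685. ADAMTS8 was in neither list, although its TSS lies 20.3 kb from that of the control-only ADAMTS15.

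The procollagen N-proteinases, which trim the amino end of fibrillar procollagens, took 3 different calls. ADAMTS3 was listed in both, ADAMTS14 (chromosome 10, position 72432559, row 2939) was control-only, and ADAMTS2 (chromosome 5, position 178772431, row 3642) was in neither list. ADAMTS3 was in no promoter table, so unlike the others it was not free to lack a peak. Their RefSeq windows on GRCh38.p14 are shown to compare 3 members of 1 function with 3 calls, with CpG dinucleotides in capitals. ADAMTS3 lies at chr4:72569172-72569471 on the minus strand, ADAMTS14 at chr10:70672256-70672555 on the plus strand and ADAMTS2 at chr5:179345412-179345711 on the minus strand.
ADAMTS3: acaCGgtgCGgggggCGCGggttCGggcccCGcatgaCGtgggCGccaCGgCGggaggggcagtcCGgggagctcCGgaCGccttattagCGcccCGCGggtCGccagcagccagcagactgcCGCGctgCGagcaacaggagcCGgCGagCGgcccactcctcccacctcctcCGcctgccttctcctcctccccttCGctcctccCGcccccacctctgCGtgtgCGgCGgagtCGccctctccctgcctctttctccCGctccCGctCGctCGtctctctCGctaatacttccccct
ADAMTS14: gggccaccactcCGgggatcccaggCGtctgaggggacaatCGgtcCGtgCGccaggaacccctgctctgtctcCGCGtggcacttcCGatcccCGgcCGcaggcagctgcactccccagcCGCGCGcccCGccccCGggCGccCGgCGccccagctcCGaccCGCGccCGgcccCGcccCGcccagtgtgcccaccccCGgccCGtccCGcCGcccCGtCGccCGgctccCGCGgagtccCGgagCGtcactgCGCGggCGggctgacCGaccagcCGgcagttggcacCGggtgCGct
ADAMTS2: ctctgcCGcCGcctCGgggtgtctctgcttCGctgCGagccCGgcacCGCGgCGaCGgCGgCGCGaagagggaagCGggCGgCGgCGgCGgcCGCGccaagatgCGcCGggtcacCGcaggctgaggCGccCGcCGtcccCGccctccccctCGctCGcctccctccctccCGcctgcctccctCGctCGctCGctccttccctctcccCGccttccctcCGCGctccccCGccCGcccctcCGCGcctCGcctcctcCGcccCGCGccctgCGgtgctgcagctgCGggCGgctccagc
The windows hold 35, 42 and 47 CpG dinucleotides in that order, so the ADAMTS2 window, the one with no listed peak, has the most.

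Of the other ADAMTS proteases, 5 of 6 with a control peak were in both lists, among them ADAMTS7, which cuts cartilage oligomeric matrix protein. This is near the 86.5% of all names with a control peak. ADAMTS10, which acts on fibrillin microfibrils (chromosome 19, position 8675588, row 3423), was control-only. ADAMTS13, the protease of von Willebrand factor, was in neither list. The ADAMTSL genes had 3 of 4 control-only, with ADAMTSL2 at row 3015 and ADAMTSL5 at row 3313. Without the ADAMTSL names the ADAMTS control-only share was 42.9% (6 of 14), and over all names with a control peak it was 13.5%.

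Of the MMP genes in the promoter tables, a control peak was listed for 3 of 3 membrane-type genes. The secreted genes there had 1 of 3 outside chromosome 11 and 0 of 9 in the chromosome 11 cluster. Over all genes in those tables the share was 70.5%. The 6 membrane-type genes MMP14, MMP15, MMP16, MMP17, MMP24 and MMP25 all had a control peak. MMP14, which activates the precursor of MMP2 at the cell surface, and MMP25, an MMP with a lipid anchor (chromosome 16, position 3096682, row 3088), were control-only. MMP15, MMP16, MMP17 and MMP24 were listed in both, with MMP16 at row 428. MMP14, MMP15 and MMP24 were in no promoter table, so only 3 of the 6 were free to lack a peak. Of the secreted MMPs outside chromosome 11, MMP2 (gelatinase A, row 2138), MMP11 and MMP28 were in both lists, and MMP9 (gelatinase B) and MMP19 were in neither. MMP11 and MMP28 were also in no promoter table, so they were not free to lack a peak.

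The 9 secreted MMPs on chromosome 11, which include the collagenases MMP1, MMP8 and MMP13 and the stromelysins MMP3 and MMP10, were in neither list. Their TSSs span 425 kb, from MMP7 at position 102401478 to MMP13 at position 102826463, through MMP20, MMP27, MMP8, MMP10, MMP1, MMP3 and MMP12. No other TSS of the promoter tables lies inside. The flanking TSSs in the tables were TMEM123, 77.7 kb before MMP7, and DCUN1D5, 561 kb after MMP7, and both were N-Myc-binding and listed in both libraries. The MMP10 window (GRCh38.p14, chr11:102780579-102780878, minus strand) is shown as an example of the cluster, with CpG dinucleotides in capitals.
MMP10: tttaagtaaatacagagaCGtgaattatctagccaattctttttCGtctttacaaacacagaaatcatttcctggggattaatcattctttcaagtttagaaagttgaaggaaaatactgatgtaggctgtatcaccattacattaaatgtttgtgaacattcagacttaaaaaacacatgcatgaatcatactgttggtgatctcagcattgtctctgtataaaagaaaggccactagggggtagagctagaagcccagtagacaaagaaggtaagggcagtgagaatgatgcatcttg
It holds 2 CpG dinucleotides, and the 5 cluster genes with a window (MMP7, MMP8, MMP10, MMP20 and MMP27) hold 2 to 4.

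TIMP1, TIMP2 and TIMP3 were listed in both libraries and TIMP4 in neither. The TIMP2 protein joins MMP14 in activating the MMP2 precursor, and of these genes TIMP2 and MMP2 were in both lists and MMP14 was control-only. TIMP2 (row 2439) and TIMP3 (row 2457) lay close together in the non-binding table. TIMP1 (chromosome X, position 47441690) held row 3185, and from 50 to 55% of the table length, where this row lies, 219 of 300 promoters with a control peak were control-only (73.0%).

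SERPIN genes had the lowest share with a control peak after MMP in the promoter tables, 7 of 25 (28.0%), where MMP stood at 4 of 15 (26.7%). All genes in those tables stood at 70.5%. All 7 clade A genes were in neither list, namely SERPINA5, SERPINA6, SERPINA7, SERPINA9, SERPINA10, SERPINA11 and SERPINA12. Several are made in liver, and the products of SERPINA6 and SERPINA7 carry cortisol and thyroxine. Of these, 6 lie within 288 kb on chromosome 14, and SERPINA7 is on chromosome X. In clade B, SERPINB1, SERPINB2, SERPINB3, SERPINB5, SERPINB7, SERPINB11, SERPINB12 and SERPINB13 were in neither list. Of the 8 clade B genes within 493 kb on chromosome 18, only SERPINB8 at the far end was listed, in both libraries.

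The clade B genes on chromosome 6 lie within 129 kb and took 3 calls. SERPINB1, an inhibitor of neutrophil proteases (position 2842283, row 3797), was in neither list. SERPINB9, the inhibitor of granzyme B (position 2903546, row 3180), was control-only. SERPINB6 (position 2971543, row 1424) was in both. Their windows hold 27, 35 and 32 CpG dinucleotides, so they were alike in CpG content with different calls.

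**Figure D3:**
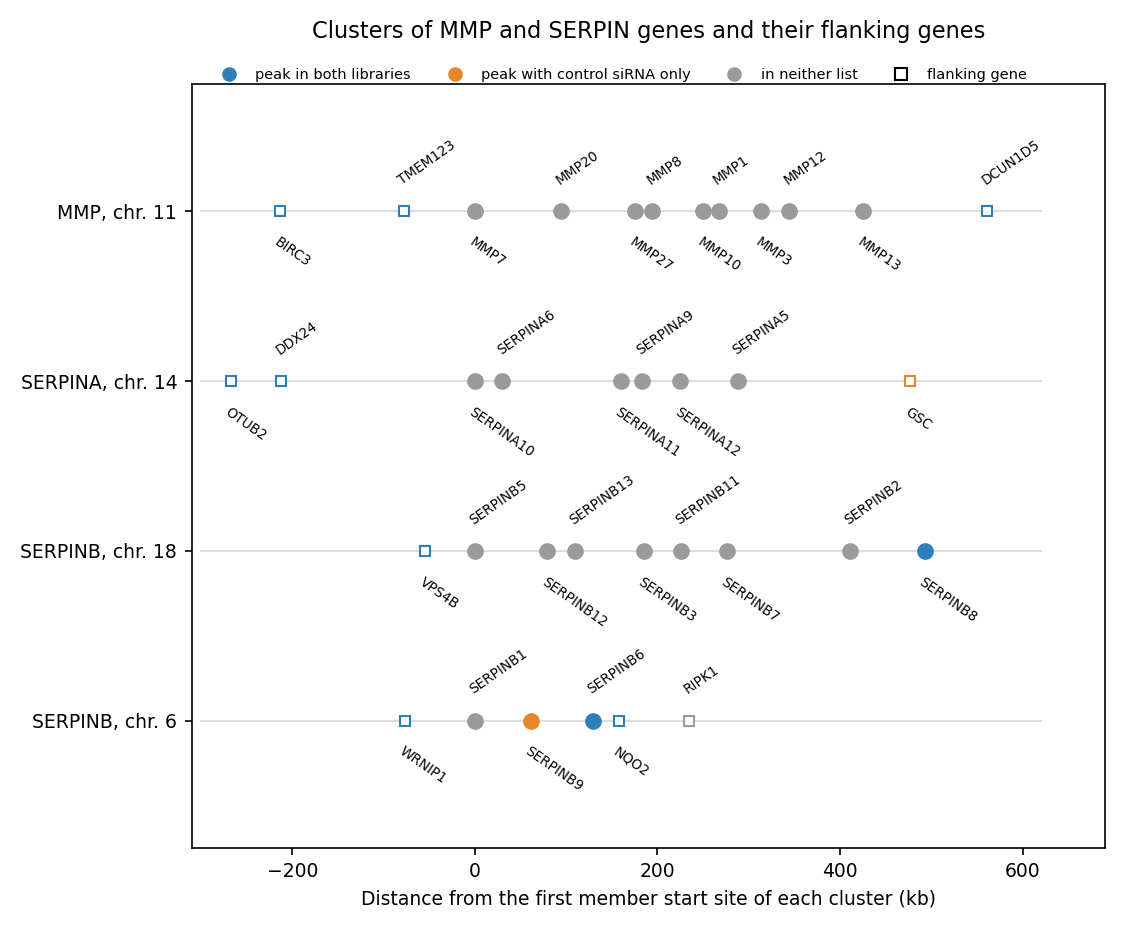
Distance in kb from the first member TSS for members (circles) and flanking genes of the promoter tables (open squares) in 4 clusters, coloured by peak call. The 9 MMP genes and the 6 SERPINA genes are all in neither list, the chromosome 18 row has 1 listed gene at its end, and the chromosome 6 row has 1 gene of each call.

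Among the other serpins, SERPINE2 (protease nexin 1), SERPINF1 (pigment epithelium-derived factor) and SERPINI1 (neuroserpin, the neural inhibitor of tissue plasminogen activator) were in both lists. SERPINF1 was in no promoter table, so it was not free to lack a peak. SERPINI1 stood earliest of the serpins, at row 773 of the non-binding table. SERPINH1, the collagen chaperone HSP47 (chromosome 11, position 75273101), was control-only at row 2542. SERPING1, the C1 inhibitor of complement (chromosome 11, position 57365027), was control-only at row 3644. The plasma inhibitors SERPINC1 (antithrombin) and SERPIND1 (heparin cofactor II), and SERPINI2, were in neither list.

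Of 10 cathepsin genes in the promoter tables, 6 had a control peak, against the same 70.5% of all genes there. CTSA, CTSB, CTSC, CTSD, CTSF, CTSL1 and CTSO were in both lists, and CTSA (row 336) and CTSB (row 342) lay 6 rows apart near the start of the non-binding table. CTSB and CTSL1 are broad lysosomal cysteine proteases and CTSD is the main aspartic one. CTSH, a cysteine protease that trims amino ends (chromosome 15, position 79237420, row 3124), and CTSL2, now named CTSV, were control-only. CTSF, CTSL1 and CTSL2 were in no promoter table, so they were not free to lack a peak. CTSE, CTSG, CTSK and CTSS, known from stomach and immune cells, neutrophils, osteoclasts and antigen-presenting cells, were in neither list.

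The median row position in the non-binding table differed between the calls of the members, while their ranges overlapped. The median position, in percent of the table length, was 25.8% for members listed in both libraries (27 genes), 50.8% for control-only members (13 genes) and 81.4% for members in neither list (48 genes). Over the whole table these medians were 23.9%, 51.5% and 78.4%, so the members followed the order of the table. The quartile range of the 13 control-only members was 48.8 to 54.1%, and that of all 656 control-only promoters was 46.8 to 55.1%. Of the 27 members in both lists, 25 lay in the first 40% of the table. The other two were TIMP1 at 50.3% and ADAMTS6 at 84.0%, and 17.5% of all promoters listed in both lay beyond 40%. With no level given, what row position measures is unknown.

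Members were unevenly spread over the rows. The first 20% of the non-binding table held 9 of 88 members (10.2%), and the last 20% held 27 (30.7%). The middle stretch, from 45 to 55%, was chosen with earlier results known and brackets the quartile range of the control-only members. A high control-only count there is therefore built in. It held 10 members, and all 10 had a control peak, as did 615 of all 634 promoters there. There 9 of 10 were control-only, namely ADAMTS4, ADAMTS10, ADAMTS14, ADAMTS15, ADAMTSL2, ADAMTSL5, MMP25, CTSH and SERPINB9. Among all promoters of this stretch that had a control peak, 368 of 615 were control-only (59.8%). The median position was 40.9% for CTS, 44.6% for TIMP, 53.3% for ADAMTS, 61.5% for ADAM, 76.1% for SERPIN and 82.6% for MMP.

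**Figure D4:**
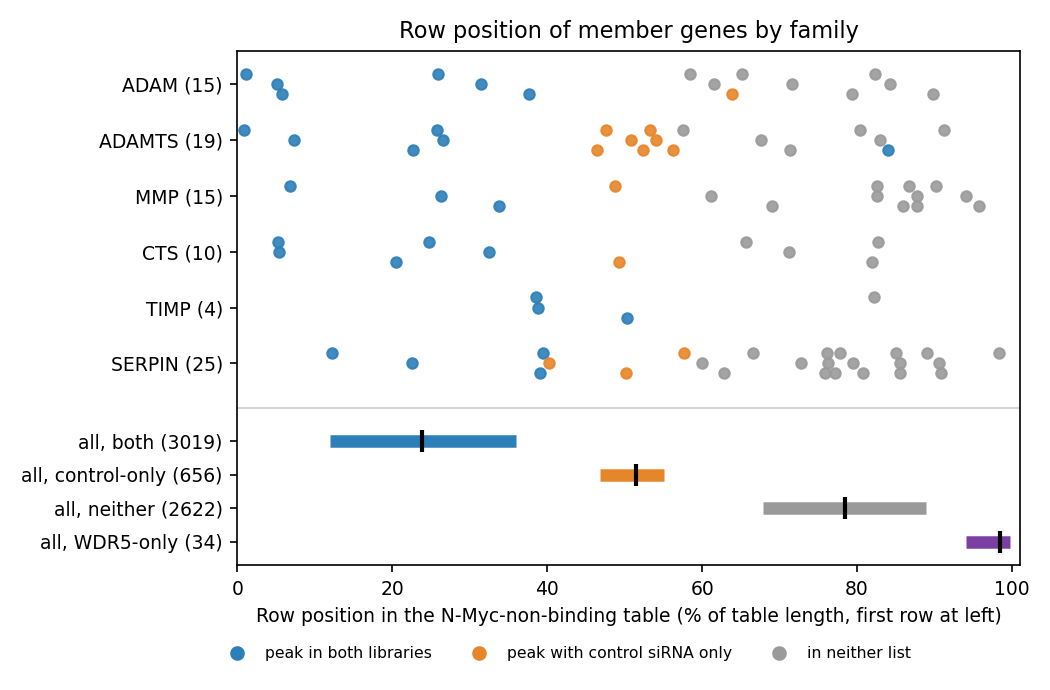
Row position in the N-Myc-non-binding table, in percent of its length, for each member (points, by family and coloured by peak call; small vertical offsets only separate points), with the number of genes in brackets. Bars below show the quartile range and ticks the median of all promoters with each call; control-only members sit between 40.2 and 63.8%.

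Members with a control peak had RefSeq windows richer in CpG dinucleotides than members in neither list, whether or not the peak was also listed with WDR5 siRNA. Windows of members listed in both held a median of 29 CpG dinucleotides (25 genes), those of control-only members 32.5 (12 genes) and those in neither list 4 (33 genes). Over all names the medians were 27, 23 and 5. Members outside the promoter tables are named only in the peak lists, so each has a peak, and the counts that follow cover table genes only. Of 26 members with at least 20 CpG dinucleotides, 20 had a control peak (76.9%, against 90.1% of all such genes), and 9 of these 20 were control-only, against 9.10% of all. Below 20, 5 of 32 members had a control peak (15.6%, against 42.3%), and 0 of these 5 were control-only, against 16.2% of all. The 6 members in neither list with at least 20 were ADAM8, ADAM12, ADAMTS2, ADAMTS12, ADAMTS18 and SERPINB1. MMP14, with 10, was the only control-only member with a window below 20, and it is outside the promoter tables.

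**Figure D5:**
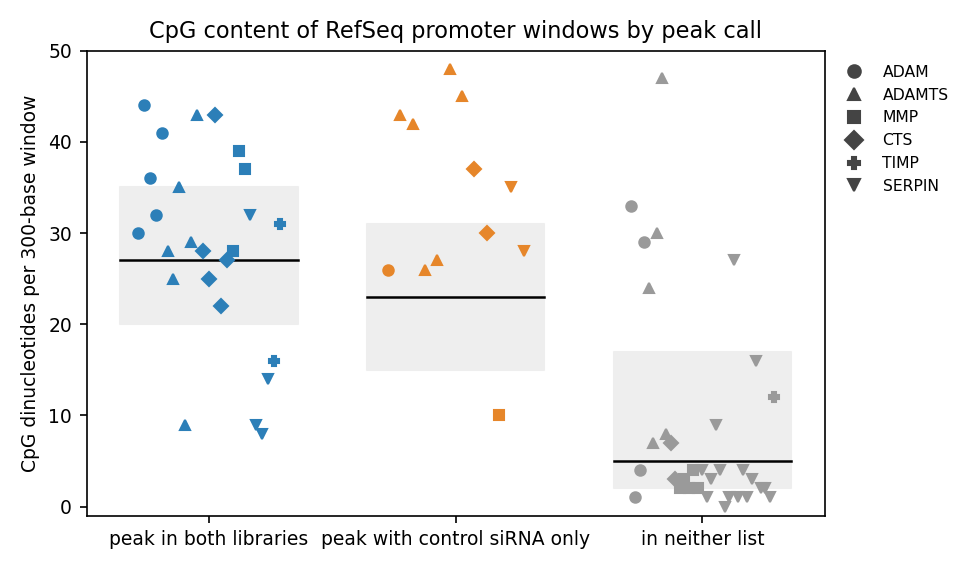
CpG dinucleotides in the 300-base RefSeq window (vertical axis) for the 70 members with a window, by peak call and with a symbol per family. Grey boxes give the quartile range and black lines the median of all names with that call; control-only members lie at 10 to 48, and most members in neither list lie below 10.

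The wider set of pericellular proteolysis genes was counted in the same way. Of 94 names taken from general knowledge, 78 were in the files. Of the 65 in the promoter tables, 28 had a control peak (43.1%, against the same 70.5% of all genes there). Over all 41 with a control peak, 16 were control-only (39.0%, against the same 13.5%). In the plasminogen system, PLAT (tissue plasminogen activator) and PLAUR (the urokinase receptor) were control-only, PLAU (urokinase) was in both lists and PLG in neither. Among proprotein convertases, PCSK2, PCSK4, PCSK6 and PCSK7 were in both lists, PCSK1 and PCSK5 were control-only, and FURIN was in neither. Of the cystatins, inhibitors of cysteine proteases, CST3 and CSTB were in both lists and CST5 and CST7 in neither. Of 65 of these genes in the promoter tables, 8 were N-Myc-binding (12.3%, against 33.9% of all genes there). Among the 8 were BSG, an inducer of MMPs, and RECK, a membrane inhibitor of MMPs, both listed in both libraries.

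Marker genes were read the same way as a check of the cell label. Of the noradrenergic neuroblastoma markers, PHOX2A, HAND2, GATA3 and ISL1 were in both lists and TH, DBH and DDC were control-only. Of 18 markers of fibroblasts, endothelium, blood, epithelium and liver, 16 were in neither list, THY1 was in both and PDGFRB was control-only. Of these 16, PECAM1, CD14, LYZ, EPCAM, ALB and APOA1 were nowhere in the files, so whether they were assessed is unknown. This weakens the check. Counted over all names rather than over control peaks, control-only calls made up 17.1% of the members and 11.2% of all names.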

How the data were processed

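The authors deposited gene names and TSS positions with no measured value, so no unit applies. BWA 0.7.12, bedtools and the build hg19 are named, without a role, in the submitters' processing notes. The peak caller and the criterion for N-Myc binding were not given in the sources used here. The second coordinate of each TSS interval was taken as its 1-based position.

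Repeated names in a list were counted once. Names were joined to the promoter tables by name, so a peak at another TSS of a gene can count for it. Members are names starting ADAM and a digit, ADAMTS, MMP or TIMP and a digit, or SERPIN, and names of CTS, a letter and at most 1 digit. All 105 matched RefSeq (GRCh38.p14, CTSL1 and CTSL2 through synonyms), and 70 had a promoter window. The first window of a gene was used, whose start need not be the authors' TSS. Motifs were CACGTG and, as an alternative, CANNTG, both the same on either strand.

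The members, gene lists, roles, row ranges and the limit of 20 CpG dinucleotides were chosen with earlier results of these data known. Every member was named. Classing was tested on simulated data. Python 3.11.15, numpy 2.4.6, scipy 1.17.1 and matplotlib 3.10.9 were used.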

Additional observations from a re-analysis of the deposited data

How the results depend on the processing

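No replicate could be left out, since each siRNA had 1 library, and the alternative that needs a level per promoter could not be run. No paired analysis was possible because each group holds 1 library and no result comes from a test. Exact (Clopper-Pearson) 95% intervals over genes are wide here, so that 72 of 75 alternatives fell within them shows little about stability. All 105 members are protein-coding in RefSeq, so the alternatives that kept only protein-coding genes could not differ. The median row position, also among the 75, is not a share and has no such interval. The control-only share of the members, 31.6%, ran from 28.3 to 33.3% when ADAMTSL names, names with several rows, genes outside the promoter tables, N-Myc-binding genes or genes with a near TSS were left out, or clustered genes counted once. Under the same alternatives the ADAMTS share ran from 42.9 to 53.8%. With all members as the denominator, which brings in genes without a control peak, the share was 17.1% for the members, 37.5% for ADAMTS, 11.5% for SERPIN, 11.1% for ADAM and 10.0% for MMP. Over all names it was 11.2%, so on this denominator SERPIN, ADAM and MMP lay close to the share of all names. The share of MMP genes with a control peak was 26.7% in the promoter tables. The N-Myc-binding share was 4.76% for members and 22.2% for ADAM over genes with a control peak. The median row position of the members was 63.3%, and 25.8% over members listed in both libraries. With CANNTG, 71.4% of member windows held a match, against 61.7% of all names with a window and 68.7% of all RefSeq windows. Using only the non-binding table and using any window of a gene were chosen after the data were seen. Depth is unknown, so a missing call could not be told from a weak mark.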

Other observations

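The antisense name ADAMTS9-AS2, which the choice of members left out, was listed in both libraries, while ADAMTS9 itself was control-only. Neither name is in a promoter table. Among other genes of the pathway, the cofactors and regulators of ADAM proteases differed in call. TSPAN14, TSPAN15 and TSPAN33, tetraspanins that accompany ADAM10, were listed in both libraries. RHBDF2, which carries ADAM17 to the cell surface, was also listed in both, and its relative RHBDF1 was control-only. The procollagen C-proteinase BMP1 and its enhancers PCOLCE and PCOLCE2 were listed in both, TLL2 was in both and TLL1 was control-only. The genes of serine protease inhibitor families SPINT1, SPINK2, WFDC1 and WFDC2 were control-only, and SPINT2, SPINK4, SPINK5 and SLPI were in neither list. The kallikrein genes KLK5, KLK6, KLK7, KLK8, KLK10 and KLK11 were in neither list. These genes were named after their calls were seen.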
